A study of Homo sapiens with 6 samples.

Results

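The genes of the translation initiation factors were examined in RNA immunoprecipitation sequencing (RIP-Seq) of CELF1, also named CUGBP1, in human melanoma cells of the lines UACC-62 and SK-Mel-103. The set held the 52 genes, of 19528 protein-coding genes in the GENCODE annotation of GRCh37, whose symbols start with EIF and a digit, without the EIF2AK kinases. In SK-Mel-103 the CELF1 precipitate (IP) of replicate 1 was compared with the input RNA of replicate 1. In UACC-62 the IPs of replicates 1 and 3 were compared with the inputs of replicates 1 and 3. The labels name no drug and no genetic change, and all cells were grown in the same serum-containing medium, fixed with formaldehyde and precipitated with the same antibody (ab9549). The labels describe the IP samples, and not the inputs, as poly A+ RNA while giving total RNA as the molecule of all, and the methods describe removal of ribosomal RNA. The part of such a difference between IP and input in the ratios was not tested. Each line stands for a single melanoma, and no precipitate with a control antibody was used here. With 2 samples of UACC-62 and a lone sample of SK-Mel-103, the spread over the 3 samples holds both the difference between lines and that between replicates. EIF1AY, on chromosome Y, was counted in the set and given no values, which left 51 genes.

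Translation initiation brings the small ribosomal subunit and the initiator tRNA to the start codon of an mRNA. eIF2 carries the tRNA, eIF2B recharges eIF2 with GTP, eIF3 is a large scaffold on the small subunit, and eIF1, eIF1A and eIF5 govern the choice of the start codon. The cap-binding complex eIF4F is made of eIF4E, the helicase eIF4A and the scaffold eIF4G, and the 4E-BP proteins keep eIF4E from eIF4G. CELF1 is an RNA-binding protein that recognizes GU-rich elements in 3′ UTRs and takes part in mRNA decay, translation and splicing.

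The authors listed bins of 20 bp that passed the Piranha threshold, and no listed bin held fewer than 4 IP reads. The lists held between 780750 and 862731 bins, with 10958459 to 14436573 IP reads and 8453517 to 10161917 input reads. IP over input is given as log2 of the IP reads over the input reads in the listed bins of a region, each with 1 read added and divided by the total of its list. Bins without enough IP reads were not listed, so that ratios of weakly read genes rest on their better precipitated bins. Across 6410 genes with at least 50 exonic IP reads in every sample, UACC-62 replicates 1 and 3 correlated with Pearson r = 0.96, and SK-Mel-103 correlated with each of them with r = 0.91. These are correlations across genes of samples with their own inputs, and genes are not independent replicates. Of 8 melanocyte lineage markers, UACC-62 had listed input reads for 6 in both replicates and SK-Mel-103 for 3, with SOX10 at 864 reads and MITF and MLANA at 18 reads each. PMEL and TYRP1 were at 0 in every sample, and TYR, DCT and S100B were at 0 in SK-Mel-103. A gene at 0 in these lists had no listed bin, and its level in the input is not known. The CELF1 mRNA itself was higher in the IP, by 3.56 ± 0.40 (SE, n = 3) on the log2 scale relative to the median gene.

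As a set, the initiation factor mRNAs were poorly recovered with CELF1. Of the 46 genes tested, 7 (15.2%) were higher in the IP than the median gene and 33 (71.7%) were lower by limma at an adjusted p under 0.05, and 6 were neither. Among all 6410 genes tested, 37.1% were higher and 37.4% lower. The median over the 46 genes was −1.07 relative to the median gene, against 0.00 over all genes tested. In 3′ UTR bins alone, 8 of 40 genes tested were higher and 29 lower, where 39.1% of all 5113 genes tested were higher and 38.9% lower. The genes supplied 1.71%, 1.82% and 1.78% of the listed input reads (SK-Mel-103, then UACC-62 replicate 1, then UACC-62 replicate 3), and 0.943%, 0.701% and 0.911% of the IP reads. They were also more abundant than most genes. Their coding regions had a median of 87.4 input RPM per kb (reads per M listed input reads and per kb of coding sequence), against 12.7 over all genes tested. Across all 5113 genes with enough 3′ UTR reads, the 3′ UTR ratio was lower at higher abundance in each sample (Spearman rho −0.43, −0.48 and −0.46), and rho was −0.34, −0.42 and −0.20 across the 40 initiation factor genes among them. The part of abundance and of the listing threshold in the low ratios was not tested beyond a centring on genes of like read level, which gave 5 higher and 32 lower genes. A count model that ignored which input belonged to which IP (edgeR without the replicate block) called 3 genes higher and 15 lower, and a minimum of 1 IP read in place of 50 gave 4 higher and 36 lower.

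**Figure D1:**
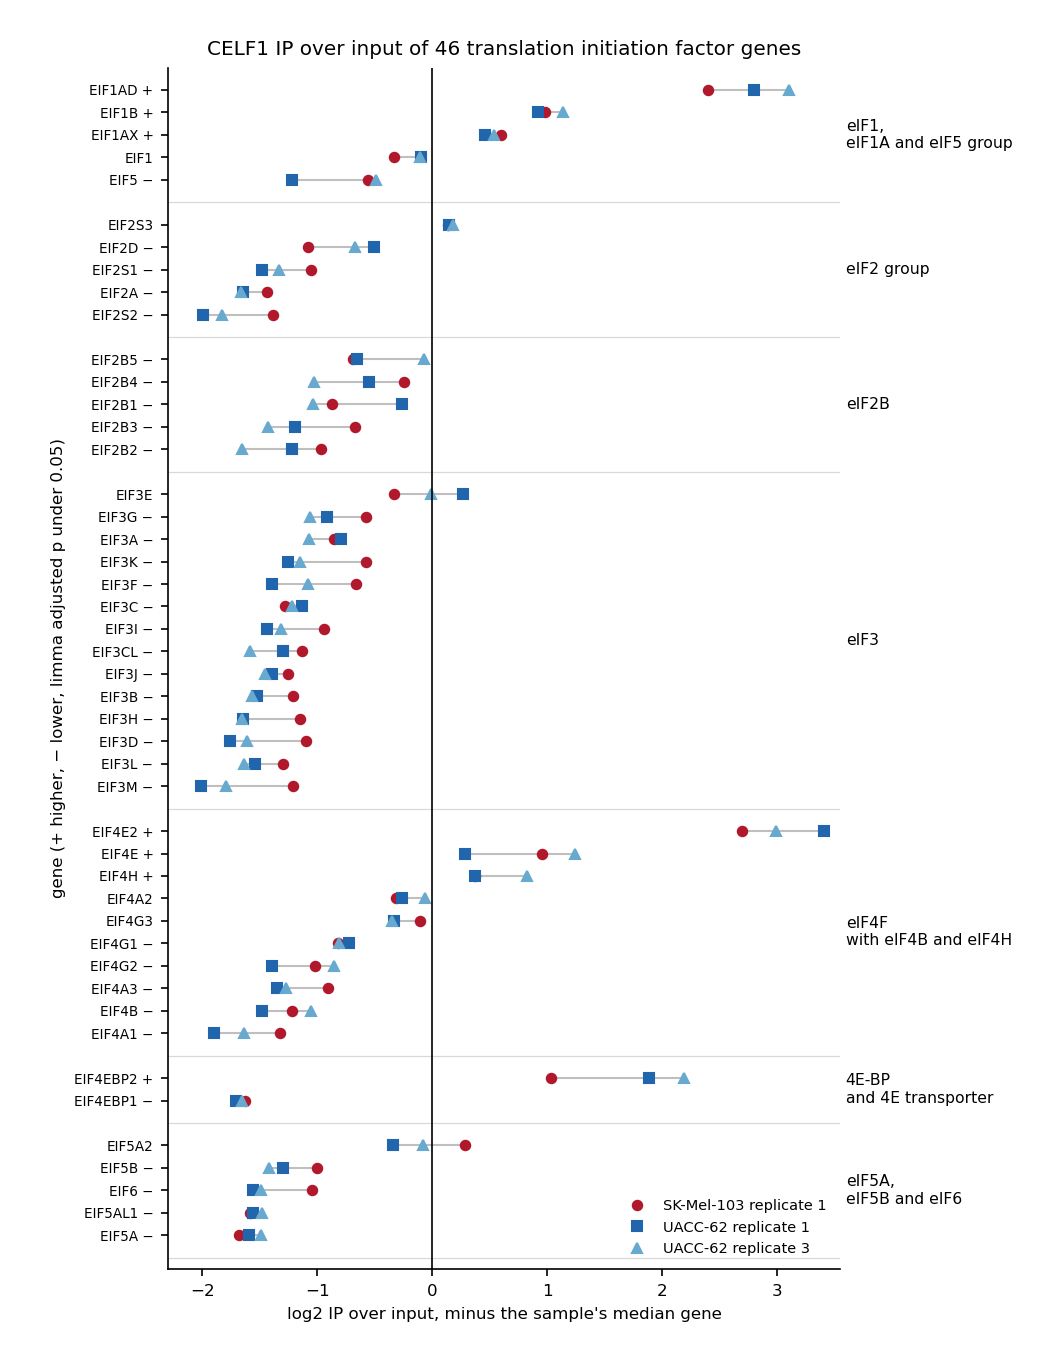
Log2 IP over input of the 46 tested genes relative to the median gene of each sample, grouped by the role of the protein, with circles for SK-Mel-103 replicate 1, squares for UACC-62 replicate 1 and triangles for UACC-62 replicate 3. The grey line joins the lowest and the highest sample, a plus sign marks the 7 genes called higher and a minus sign the 33 called lower; EIF4E2, EIF1AD and EIF4EBP2 lie farthest to the right.

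A peak and a high ratio were different things for these abundant mRNAs. The study kept bins with more than 30 IP reads that were shared by the 3 samples, and by that rule 28 of the 46 tested genes (60.9%) had a common 3′ UTR peak, against 25.4% of all genes tested and 8.56% of all genes with an annotated 3′ UTR. Of these 28 genes, 17 were lower in the IP, 7 were higher and 4 were neither. The 18 tested genes without a common peak held 16 lower genes and 2 that were neither. In the 409 common 3′ UTR bins, IP over input was above 0 in all 3 samples in 174 and below 0 in all 3 in 135. In 15 of the 28 genes each common bin was below the input in every sample, as for the 17 bins of EIF4A1, the 14 of EIF5A and the 11 of EIF4B. The 63 bins of EIF4E2, the 12 of EIF1AD, the 5 of EIF4EBP2 and the 2 of EIF1B were all above the input in every sample. Common peaks in coding regions were found in 16 tested genes (34.8%, against 8.46% of all genes tested), and EIF4G2 with 59 bins and EIF4A1 with 35 held most of the 131 bins.

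The genes of eIF1, eIF1A and eIF5, grouped by name with EIF1AD, held 3 higher genes, 1 lower and 1 neither, of 5 tested. EIF1AD, whose protein carries an eIF1A-like domain and is not known as a factor of start codon choice, had values relative to the median gene of 2.40, 2.80 and 3.11 (SK-Mel-103, then UACC-62 replicate 1, then UACC-62 replicate 3, an order kept throughout). The mean was 2.77 ± 0.32 (SE, n = 3; limma adjusted p = 6.78e-06), and EIF1AD ranked 158th of the 6410 genes. Its 3′ UTR held 2259, 1617 and 2408 IP reads over 352, 263 and 183 input reads. EIF1B, a close relative of EIF1, had values of 0.99, 0.92 and 1.14, with no overlap with the −0.34, −0.10 and −0.11 of EIF1. EIF1AX, which encodes eIF1A, was higher by 0.53 ± 0.17 (SE, n = 3), and had the most common 3′ UTR bins of all, 64. Its call was lost in 5 other settings, among them each fit without a UACC-62 replicate (0.54 without replicate 1 and 0.53 without replicate 3), and its value turned to −0.27 after centring on genes of like read level. EIF5, the GTPase activator of eIF2, was lower in all 3 samples (−0.56, −1.22 and −0.49). The strongest common bin of EIF1AD and the common bin of EIF1AX that holds a GU-rich core are shown with 5 nt on each side, on the transcript strand, to set a bin well above the input beside one near it. Capitals mark the cores UGUUUGU and UGUGUGU.
EIF1AD, chr11:65764096-65764125, minus strand: uauagcguggcuuuaaacauauauacauuu
EIF1AX, chrX:20145936-20145965, minus strand: gaagaaaaaaaauaagucUGUUUGUcauau
The EIF1AD bin, without a core, had 177, 108 and 195 IP reads over 6, 2 and 11 input reads. The EIF1AX bin had 45, 76 and 173 IP reads over 23, 98 and 93 input reads. These bins were chosen by different rules in genes of unlike ratio, so they do not compare bins with and without a core. Within EIF1AX, the strongest common bin, without a core, had 164, 263 and 426 IP reads over 200, 460 and 419 input reads.

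In the eIF2 group 4 of 5 tested genes were lower and none was higher. EIF2S2, the β subunit, had values of −1.38, −2.00 and −1.83 and was the lowest of all 46 genes, with a mean of −1.74 ± 0.20 (SE, n = 3). EIF2S1, the α subunit that stress kinases phosphorylate, was at −1.29, EIF2A, a factor apart from the trimer, at −1.58, and EIF2D, which can deliver tRNA without GTP, at −0.75. EIF2S3, the γ subunit, stood apart from both partners at 0.14, 0.15 and 0.18, and was neither higher nor lower. Its 3′ UTR alone was higher than the median 3′ UTR by 0.40 (limma adjusted p = 0.0308), and it held 57 common bins, 25 of them above the input in all samples. All 5 subunits of eIF2B were lower, from −0.47 for EIF2B5, the catalytic subunit, to −1.28 for EIF2B2. No eIF2B gene had a common peak. The call of EIF2B4 was lost without UACC-62 replicate 3 (−0.40), and that of EIF2B5 without UACC-62 replicate 1 (−0.41) and after centring on genes of like read level (−0.30). EIF2S3B, a copy of EIF2S3, had 4 IP reads in its 3′ UTR in a single sample and was not tested.

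Of the 14 eIF3 genes, 13 were lower and none was higher. The values ran from −1.67 for EIF3M to −0.02 for EIF3E, with a median of −1.28. EIF3M had −1.21, −2.02 and −1.79. EIF3A, the largest subunit, had −0.85, −0.80 and −1.07, and EIF3D, a subunit with its own cap-binding activity, had −1.10, −1.76 and −1.61. EIF3C and EIF3CL are near-identical copies whose reads the alignment could split, and their values of −1.21 and −1.34 are uncertain. EIF3E was the exception, with −0.33, 0.27 and −0.01 over all exons and with 3′ UTR values of 0.45, 0.84 and 0.87. Restricted to 3′ UTR bins it was called higher, by 0.98 (limma adjusted p = 0.000545), a change of sign.

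The reads of EIF3E lay at alternative 3′ ends with opposite ratios. The upstream end, at chr8:109242351-109245853 on the minus strand of GRCh37, is a 3′ UTR stretch of 3503 nt that lies in an intron of longer transcripts. It held 2217, 4332 and 5179 IP reads over 713, 1208 and 940 input reads, or 1.26, 1.68 and 1.76 on the log2 scale. The downstream end, at chr8:109212780-109215151, held 295, 145 and 277 IP reads over 703, 1034 and 905 input reads, or −1.62, −2.98 and −2.40. The difference was 3.91 ± 0.92 (SD, n = 3) and had the same sign in every sample. In the remaining introns of EIF3E the listed bins, 84, 32 and 37 in number, had 510, 173 and 223 IP reads and ratios of 0.92, 0.48 and −0.53. The listed reads do not show whether those of the upstream end came from the short transcript or from unspliced RNA, and the 2 cannot be told apart.

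The eIF4F genes with EIF4B and EIF4H were the most uneven group, with 3 higher, 5 lower and 2 neither of 10 tested. EIF4E2, a cap-binding relative of eIF4E that takes part in translational repression, had the highest value of all the genes, with 2.69, 3.41 and 2.99 and a mean of 3.03 ± 0.34 (SE, n = 3; limma adjusted p = 6.78e-06). It ranked 96th of 6410 genes. EIF4E, the cap-binding subunit of eIF4F, was higher by 0.83 ± 0.21 with a wide spread of 0.96, 0.29 and 1.24. EIF4H, a cofactor of the helicase, was higher by 0.52 ± 0.18 and held 51 common bins, but this call was lost in 5 other settings, among them each fit without a UACC-62 replicate (0.57 without replicate 1 and 0.37 without replicate 3). EIF4A1, the main helicase subunit, was lower at −1.32, −1.90 and −1.64, as was EIF4B, another cofactor, at −1.22, −1.48 and −1.05. EIF4A3, a component of the exon junction complex, was lower, at −1.18. The scaffolds EIF4G1 and EIF4G2 were lower, at −0.79 and −1.09, and EIF4G3 was at −0.26 without a call, though it was called lower in 3′ UTR bins (−0.53) and without the SK-Mel-103 sample (−0.39). EIF4E3 and EIF4E1B, relatives of eIF4E, had too few reads to be tested, with at most 34 IP reads in the 3′ UTR of EIF4E3 and no listed bin in that of EIF4E1B.

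EIF4E2 has alternative last exons, and most of the precipitated reads lay on the downstream exon. That exon, at chr2:233445614-233448354 on the plus strand of GRCh37, is annotated as 3′ UTR over 2741 nt, with a short coding stretch at its start in some transcripts. It held 6392, 6365 and 6354 IP reads over 578, 345 and 311 input reads, or 3.09, 4.04 and 3.65 on the log2 scale. It took 93.3%, 95.8% and 92.5% of the exonic IP reads of the gene, and 58.9%, 37.7% and 42.0% of its listed input reads. The upstream 3′ UTR, at chr2:233431962-233433920, had 107, 78 and 94 IP reads over 192, 279 and 202 input reads, or −1.21, −1.98 and −1.79. The difference between both ends was 5.26 ± 0.88 (SD, n = 3), and every sample showed it with the same sign. The windows below come from the downstream exon, where GU repeats were found, and show the strongest common bin and the 2 common bins with a whole core inside them. Capitals mark UGUUUGU or UGUGUGU.
EIF4E2, chr2:233448296-233448325, strongest bin: guguugcacuuucagagcaauuaucuacug
EIF4E2, chr2:233447416-233447445, bin with a core: cuguUGUGUGUGUgggaaagucagugugua
EIF4E2, chr2:233448136-233448165, bin with a GU repeat: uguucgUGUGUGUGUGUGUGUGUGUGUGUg
These bins had 226, 185 and 195 IP reads over 18, 5 and 9 input reads, then 95, 116 and 118 over 8, 3 and 2, and then 101, 76 and 46 over 7, 3 and 2. The bin without a core was chosen as the strongest, so its IP reads do not compare bins with and without a core. Summed in windows along the exon, IP over input stayed above 0 in every window of every sample, and in SK-Mel-103 it lay between 1.75 and 3.99.

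**Figure D2:**
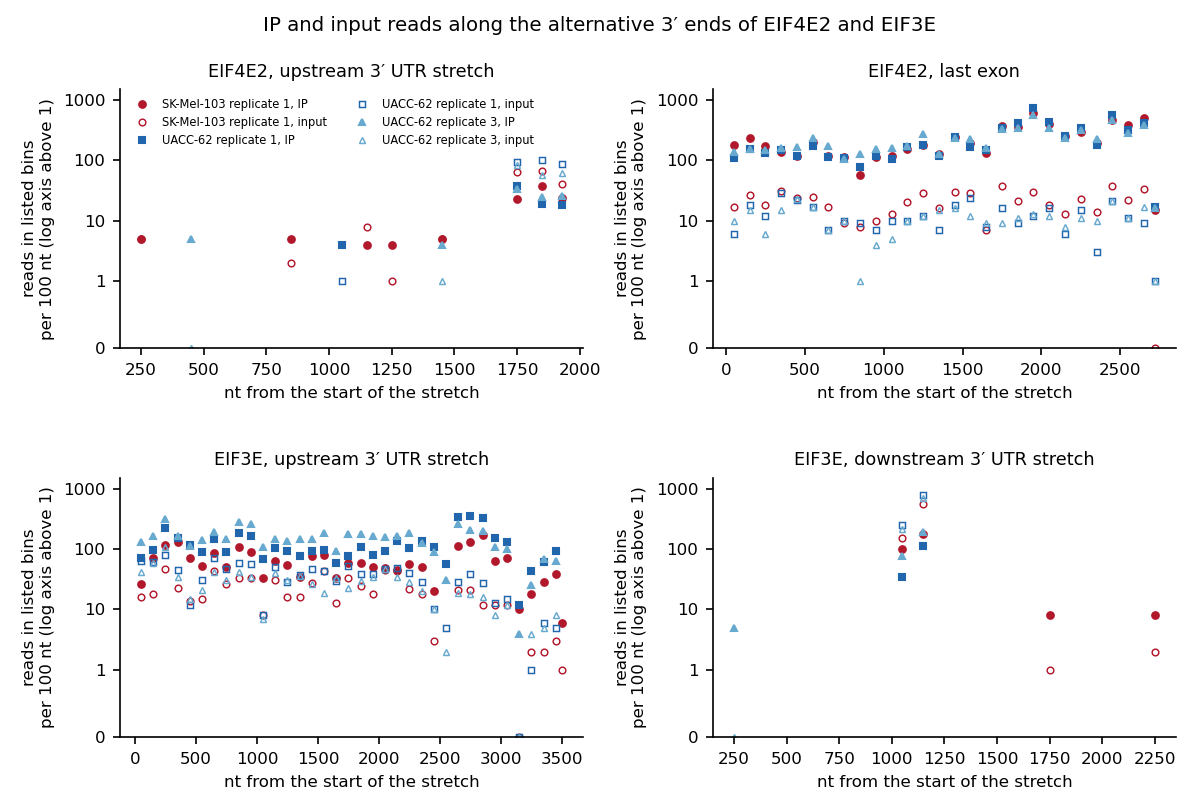
IP reads (filled symbols) and input reads (open symbols) of the 3 samples in listed bins, summed per 100 nt from the start of each 3′ UTR stretch of EIF4E2 and EIF3E in the direction of transcription, on an axis that is logarithmic above 1; windows without a listed bin in a sample are not drawn. In total the IP exceeds the input over the last exon of EIF4E2 and the upstream stretch of EIF3E, and the input exceeds the IP over the upstream 3′ UTR of EIF4E2 and the downstream end of EIF3E.

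The 4E-BP genes had opposite calls. EIF4EBP2 had 1.03, 1.88 and 2.19 and a mean of 1.70 ± 0.27 (SE, n = 3; limma adjusted p = 3.61e-05). EIF4EBP1 had −1.63, −1.70 and −1.66 and was among the lowest of the set. In 3′ UTR bins the difference between them was 2.78, 3.79 and 4.09, over 3′ UTRs of 6871 and 430 nt. EIF4EBP3 and EIF4ENIF1, the 4E transporter, had too few reads to be tested. The common bin of EIF4EBP2 that holds cores is shown because the gene was among the 4 with all common bins above the input.
EIF4EBP2, chr10:72183596-72183625, plus strand: ucagaaaaguaauuuuUGUUUGUUUGUuua
It had 49, 65 and 71 IP reads over 8, 12 and 7 input reads.

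EIF5A, EIF5B, EIF6 and the EIF5A copy EIF5AL1 were all lower, between −1.59 and −1.24. eIF5A carries hypusine and helps peptide bond formation, eIF5B joins the ribosomal subunits, and eIF6 keeps the large subunit from joining too early. The reads of EIF5AL1 lay in the part of the gene that is a copy of EIF5A, and its value of −1.54 beside −1.59 for EIF5A is uncertain. EIF5A2, the less abundant paralogue, had 0.29, −0.34 and −0.08 and was not called.

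Paralogues that make similar proteins had unequal ratios in the IP. In 3′ UTR bins EIF4A2 exceeded EIF4A1 by 1.48, 2.07 and 2.02, although their 3′ UTRs measured 628 and 635 nt. The 3′ UTR of EIF4A2 had 3300, 863 and 1312 IP reads over 2655, 985 and 815 input reads, and that of EIF4A1 had 2000, 1263 and 1797 over 4482, 6071 and 4537. Reads of EIF4A1 can be shared with its pseudogenes, and its values are uncertain to that extent. EIF4A1 was the more abundant in coding input, with 1295 input RPM per kb against 206. EIF1B exceeded EIF1 by 1.27 ± 0.25 (SD, n = 3), with a 3′ UTR of 410 nt against 2252 nt. EIF5A2 exceeded EIF5A by 1.56 ± 0.36, and EIF4E2 exceeded EIF4E by 2.40 ± 0.86. In these 4 pairs and in the 4E-BP pair the sign was the same in the 3 samples. In each of them the gene with the higher ratio was also the less abundant in coding input. EIF1B had 13.7 input RPM per kb against 98.4 for EIF1, and EIF5A2 had 5.87 against 284 for EIF5A. EIF4E2 had 32.4 against 51.3 for EIF4E, and EIF4EBP2 had 1.25 against 78.8 for EIF4EBP1. EIF4G3 against EIF4G1 (0.49, 0.45 and −0.29) and EIF4G1 against EIF4G2 (−0.27, 0.30 and 0.12) changed sign between samples. The differences within pairs, and the part of abundance in them, were not tested. The EIF4A pair is shown by the common bin of EIF4A2 that holds a core and the strongest common bin of EIF4A1, which holds none.
EIF4A2, chr3:186507436-186507465, plus strand: cugccuuuauugUGUUUGUcauuagccuga
EIF4A1, chr17:7481696-7481725, plus strand: ggcuauuaacauggugacagaagaagacaa
The EIF4A2 bin had 117, 32 and 50 IP reads over 51, 22 and 18 input reads, and the EIF4A1 bin had 121, 123 and 185 over 367, 815 and 636. These bins were chosen by different rules, so they do not compare bins with and without a core. The strongest common bin of EIF4A2, without a core, had 383, 107 and 149 IP reads over 215, 107 and 88 input reads. Of the 11 common bins of EIF4A2, 3 were above the input in all samples and 5 below it in all.

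**Figure D3:**
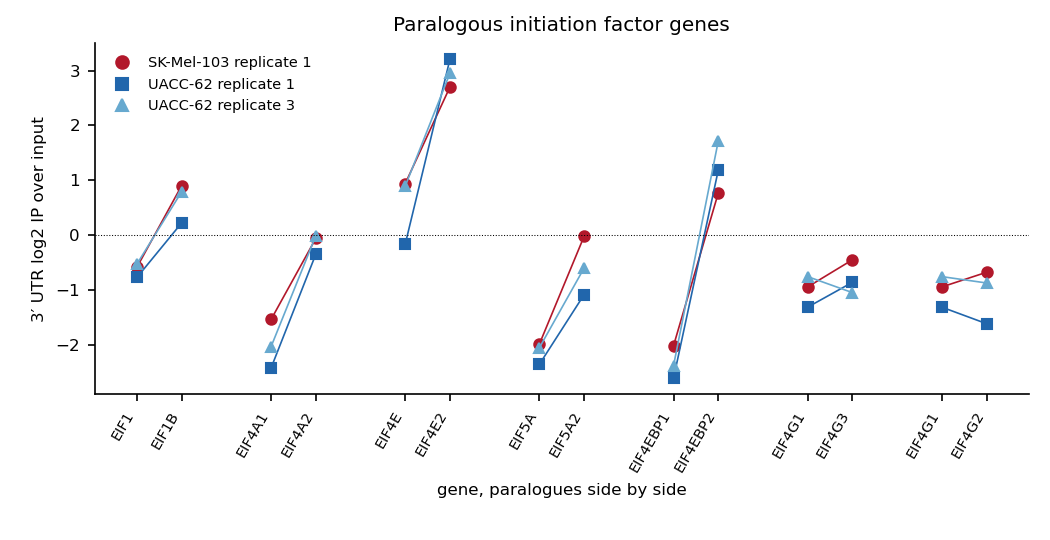
Log2 IP over input in 3′ UTR bins of paralogous genes, joined by a line for each of the 3 samples (circles, SK-Mel-103 replicate 1; squares, UACC-62 replicate 1; triangles, UACC-62 replicate 3). The second gene lies above the first in every sample for the EIF1, EIF4A, EIF4E, EIF5A and EIF4EBP pairs, and the lines of each EIF4G pair run in different directions.

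Short and abundant mRNAs were then compared with those that have a long 3′ UTR. Short meant a merged 3′ UTR under 1000 nt, long at least 2000 nt, and abundant more than the set's median of 83.0 input RPM per kb of coding sequence. Of the 11 short abundant genes, 10 were lower and EIF4A2 was neither; of the 19 long genes tested, 4 were higher, 11 lower and 4 neither. In 3′ UTR bins the 10 short abundant genes that had listed bins in all samples were EIF3B, EIF3D, EIF3G, EIF3L, EIF4A1, EIF4A2, EIF4G1, EIF4G2, EIF5A and EIF6. Their median ratio was −1.08, −2.10 and −1.85 in the 3 samples, against −0.63, −1.09 and −0.96 for the 19 long genes. The difference was −0.45, −1.01 and −0.89, with a mean of −0.78 ± 0.30 (SD, n = 3; exact sign-flip permutation test, two-sided p = 0.25, the smallest that 3 samples allow). The long genes were far more spread than the short ones. In UACC-62 replicate 1 the long genes ran from −2.84 for EIF3M to 3.21 for EIF4E2, and the short abundant ones from −2.45 for EIF6 to −0.35 for EIF4A2. The EIF3M value rested on only 3 listed bins. EIF4E2, EIF1AD, EIF4EBP2 and EIF1AX were the 4 higher long genes. EIF2A, EIF3H and EIF3M, also long, were as low as the short abundant genes. Listed bins covered only 18.1%, 7.60% and 14.3% of the 3′ UTR of EIF2A, and 11.1%, 4.87% and 6.95% of that of EIF3H. Some genes were long only because alternative 3′ ends were merged. In a single reference transcript the 3′ UTR measured 193 nt in EIF4E2, 669 nt in EIF3E and 408 nt in EIF3I. By that length 14 genes were long, EIF1AD, EIF4EBP2 and EIF1AX among them. The difference lay between −0.44 and −0.28 under 4 other settings, nearest 0 when only bins of a single reference transcript per gene were counted. EIF5AL1, whose reads lay in its copy of EIF5A, counted as long. Without the near-identical copies, a setting added after seeing the data, the difference was −0.83 with 18 long genes. Listed bins covered a median of 82.8%, 89.7% and 82.8% of the short abundant 3′ UTRs and 33.5%, 27.5% and 35.7% of the long ones. Across the 40 genes with at least 50 3′ UTR IP reads in every sample, length and ratio had a Spearman rho of 0.30, 0.29 and 0.27, against 0.41, 0.44 and 0.45 across all 5113 such genes, given here as a description.

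**Figure D4:**
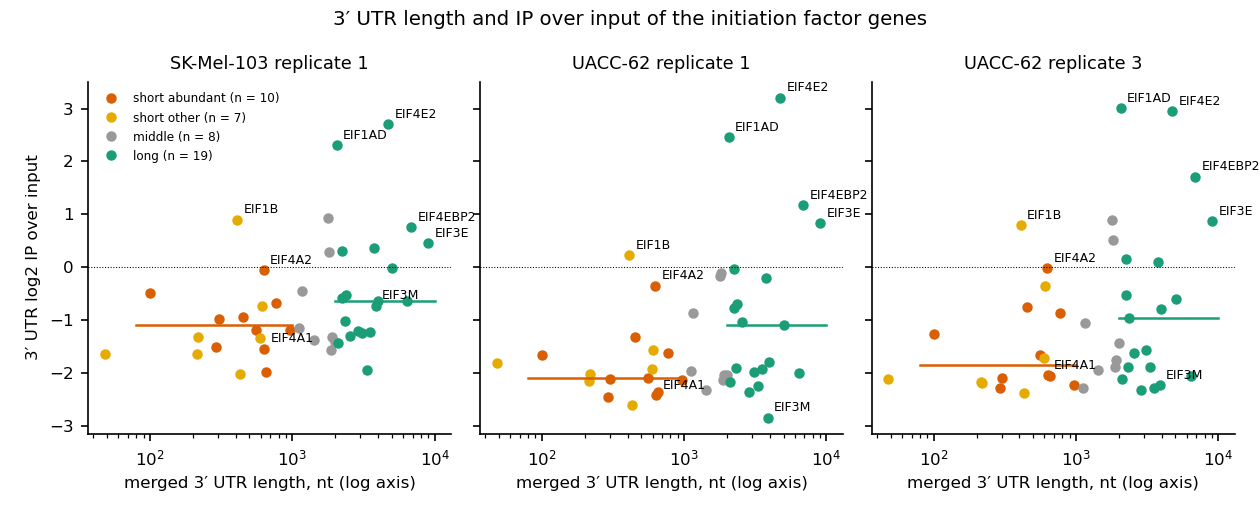
Merged 3′ UTR length in nt (log axis) against log2 IP over input in 3′ UTR bins for the 44 genes with listed 3′ UTR bins in all samples, 1 panel per sample, coloured by class (10 short abundant, 7 other short, 8 of middle length, 19 long). Horizontal lines mark the medians of the short abundant and the long genes; EIF4E2 and EIF1AD lie above all other genes in every panel.

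Within a gene, the 3′ UTR was better recovered than the coding region in most of the set, as it was in most genes. With at least 50 IP reads in both regions, 31 of 40 genes in SK-Mel-103, 26 of 37 in UACC-62 replicate 1 and 26 of 40 in UACC-62 replicate 3 had a higher ratio in the 3′ UTR, with medians of 0.34, 0.25 and 0.27. Among all genes with enough reads, 74.6%, 77.4% and 71.5% did, with medians of 0.42, 0.47 and 0.34, above those of the set in every sample. By the mean over the 3 samples, the widest differences were those of EIF4E2 (2.35, 3.90 and 2.78) and EIF3E (2.24, 3.46 and 3.14), followed by EIF2S3 (1.51, 1.96 and 1.40). EIF1, EIF1AX and EIF5, which act in start codon choice, were above 0 in every sample, as was EIF1AD. EIF6 (−0.41, −0.40 and −0.64), EIF4EBP1 (−0.41, −0.77 and −0.77), EIF2B1 (−0.76, −0.26 and −0.52) and EIF5A (−0.17, −0.19 and −0.29) had the lower ratio in the 3′ UTR in every sample.

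**Figure D5:**
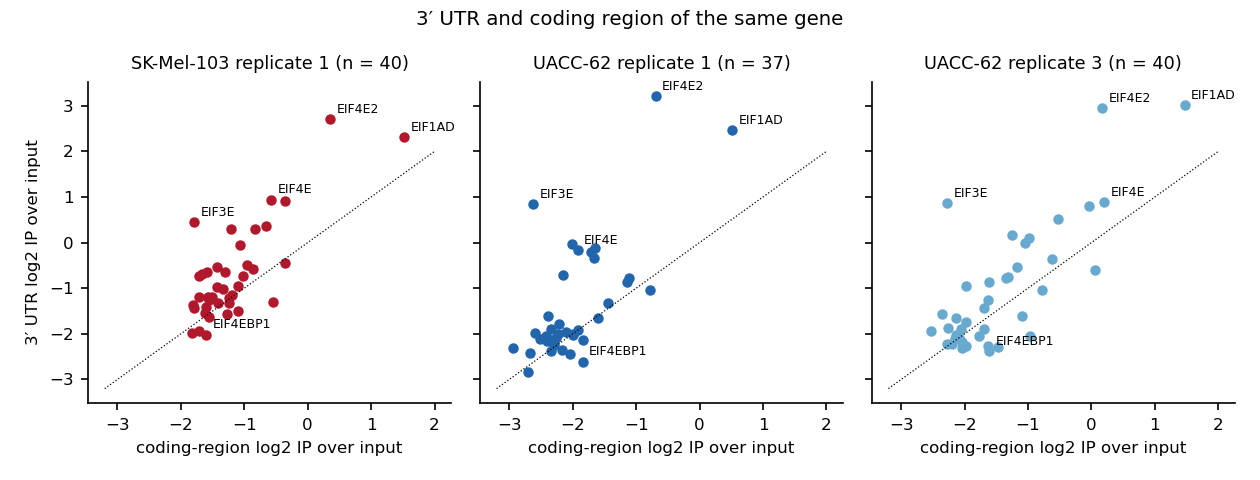
Log2 IP over input in coding bins (horizontal) and in 3′ UTR bins (vertical) of the same gene, for genes with at least 50 IP reads in both, 1 panel per sample. The dotted line marks equal ratios; 31 of 40, 26 of 37 and 26 of 40 genes lie above it, with EIF4E2 and EIF3E farthest from it.

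GU-rich cores were counted in the annotated 3′ UTRs. The cores were exact matches to the first 7 letters of the GU-rich elements that the paper searched. The paper used the longer elements and allowed mismatches, so a gene without a core here can still hold an element by its rule. UGUUUGU or UGUGUGU, read on the transcript strand only and with overlaps counted, occurred in 22 of 51 genes (43.1%), against 42.9% of the 19037 genes with an annotated 3′ UTR. The long genes held a core in 13 of 19 (68.4%), against 75.2% of all genes with a 3′ UTR of at least 2000 nt, and the short abundant genes in 2 of 10, against 14.2% of all genes under 1000 nt. EIF4E2 had the most cores, 18, or 3.80 per kb, and EIF3E had 16. EIF1AD, with the second highest ratio, was without a core in its 3′ UTR of 2054 nt. EIF3F had 7 cores in a merged 3′ UTR of 6411 nt and was lower in the IP. Listed bins covered only 34.9%, 2.81% and 4.06% of that 3′ UTR, so most of the stretch searched for cores had no ratio. In windows of 30 nt, 11 of the 409 common bins (2.69%) held a core, against 1.43% or 23 of the 1614 member bins listed in all samples, and 1.04% of all such windows in annotated 3′ UTRs. EIF4E2 and EIF4H each held several of the 11 bins, and in each gene neighbouring bins shared a GU repeat. The shares therefore do not count separate sites, and their difference was not tested.

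Of 38 genes listed for elongation, poly(A) binding, eIF2 kinases, release and mTOR signalling, 32 were tested, of which 18 were lower, 7 higher and 7 neither, where 37.4% of all genes tested were lower and 37.1% higher. Their values had a median of −0.65 and a range from −1.67 to 2.52. The elongation factors EEF1A1 and EEF2 were lower, at −1.57 and −1.65, as was the poly(A)-binding protein gene PABPC1 at −1.06. The 7 higher genes were EEF2K, the kinase that inhibits eEF2, at 2.52, LARP1, which binds mRNAs with a 5′ terminal oligopyrimidine tract, at 2.33, the eIF2 kinase EIF2AK2 at 1.48, RPTOR and RPS6KB1 of the mTOR pathway at 0.88 and 0.66, and the helicase gene DDX3X and the eIF2 kinase EIF2AK3. Other genes of these classes went the other way: the eIF2 kinase EIF2AK4 (−1.02) and MTOR (−0.48) were lower. The eIF2 kinase EIF2AK1 (−0.05) was neither. DDX3X had 14875, 27151 and 36109 IP reads over 6560, 10482 and 10971 input reads. EIF2AK3 had 68, 124 and 124 IP reads over 33, 112 and 40 input reads.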

How the data were processed

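CELF1-bound and input RNA of the 2 melanoma lines was sequenced, per the methods after removal of ribosomal RNA, and 6 samples gave 3 lists of IP against input. The authors aligned reads to GRCh37 with TopHat (TopHat2 2.0.4 and Bowtie 0.12.7 in the submitters' processing notes, with SAMtools 0.1.16 and FastQC) and called bins of 20 bp with Piranha, per sample and with the input as covariate. The deposited files give a whole count of IP reads per bin. The deposited p-value of a bin was under 0.05 in every list, and whether it was corrected is not given in the sources used here. The scale of the covariate is not given in the sources used here. The deposited covariate was taken as a ratio, the bin's input reads over a constant, with 0.01 for a bin without input, and every IP over input value rests on that reading. It was turned back into whole input reads as multiples of its smallest step, from which values deviated by at most 0.0247 of a step. Bins without input made up 9.69% to 29.2% of a list.

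Bins were assigned by their centre to exons of GENCODE release 44 on GRCh37, on the strand opposite to that listed, which held 97.3% to 97.8% of the bins in exons. A bin in a 3′ UTR of any transcript counted as 3′ UTR, then as coding, then as other exon. Readthrough genes were set aside. For genes with at least 50 IP reads in each sample, log2 of IP over input, with 1 read added, minus the sample's median gene was tested against 0 with limma 3.58.1 in R 4.3.3 (trended variance, Benjamini-Hochberg adjustment over 6410 genes, threshold 0.05). Each IP was paired with the input of the same line and replicate number in the labels. In UACC-62 the log2 of replicate 1 over replicate 3 correlated between IP and input with Pearson r = 0.825 over 6410 genes. The labels do not say whether replicates came from separate cultures, so p-values measure only the spread between these 3 samples, which may be technical. PCR reads without molecular identifiers are not independent molecules.

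On simulated data for this comparison with 190 of 6316 genes changed by 1 on the log2 scale, 100% were recovered and 1.55% of calls were false. The simulated ratios had no listing threshold, no trend with abundance and no difference between lines, so these rates need not hold for the deposited lists. The members and gene lists were chosen with earlier results of these data known. Values were given for genes with a common 3′ UTR peak, the highest and lowest gene of each role, the short abundant and long genes, and the paralogues. Alternatives were run with edgeR 4.0.16 and DESeq2 1.42.0 on the read counts, and with other scalings, centrings, filters, pseudocounts, 3′ UTR definitions and left-out samples. Python 3.11.15 with pandas 2.3.3, scipy 1.17.1 and pysam 0.24.0 was used for the other steps.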

Additional observations from a re-analysis of the deposited data

Results flagged for a closer look

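EIF5A2, the less abundant paralogue of EIF5A, was above the median gene in SK-Mel-103 (0.29) and below it in both UACC-62 replicates (−0.34 and −0.08), a difference of 0.50 between the line values on the log2 scale. The samples of both lines lay on opposite sides of 0, and the difference between the lines was not tested, with 1 sample of SK-Mel-103.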

How the results depend on the processing

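Of 587 recomputed values, 543 kept their direction and their side of the threshold, or their size. The number of genes with a common 3′ UTR peak (28) was 44 with every listed bin, 12 with more than 100 IP reads and 0 on the listed strand, and 28 to 33 without 1 sample. The 7 higher genes became 4 at a minimum of 1 IP read, and 5 to 7 without 1 sample. The 33 lower genes became 32 to 34 without 1 sample. EIF1AX turned to −0.27 after centring on genes of like read level, and EIF3E to 0.98 in 3′ UTR bins only (added after seeing the data). The difference of short abundant minus long genes (−0.78) was −0.34 with the 3′ UTR length of 1 transcript, −0.44 with limits of 500 and 3000 nt, −0.39 after centring on genes of like read level and −0.28 with bins of 1 transcript, the last chosen after seeing the data. It was −0.95 to −0.67 without 1 sample, and no value was obtained on the listed strand. The cause of these changes was not tested.

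Without the replicate block, that is without pairing each IP with its own input, edgeR called 3 genes higher and 15 lower, and 673 and 463 of all genes against 2380 and 2397. With the replicate block edgeR and DESeq2 each called 7 higher and 33 lower. The difference of short abundant minus long genes was −0.66 without the block, from summed IP over summed input. Low read numbers limit the genes not tested.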

Other observations

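The long 3′ UTRs of EIF3F and EIF3M had more reads in the single SK-Mel-103 sample than in UACC-62. The 3′ UTR of EIF3F, a subunit with an MPN domain, had 1120 IP reads over 1347 input reads in SK-Mel-103, and 141 over 509 and 188 over 482 in UACC-62 replicates 1 and 3. Its log2 IP over input was −0.64, −2.00 and −2.05. EIF3M had 476 IP reads over 607 input reads in SK-Mel-103, and 62 over 404 and 112 over 325 in UACC-62, or −0.72, −2.84 and −2.23. Listed 3′ UTR bins numbered 112, 9 and 13 for EIF3F and 39, 3 and 5 for EIF3M, so the lines were compared over unlike stretches. In UACC-62 a single bin held 43 and 92 of the EIF3M IP reads and 369 and 295 of its input reads. The median 3′ UTR of all genes was at −0.04, −0.50 and −0.24 in the same samples. These genes were picked after their values were seen, and the difference between the lines was not tested.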
